A study of Mus musculus with 18 samples.

Results

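The expression of 48 interferon-stimulated genes was followed in 18 mouse livers after myocardial infarction (MI) or sham operation. They were given as a list of symbols known from the interferon response and were matched exactly to the symbols of each count table. The list falls into 8 roles, which are transcription factors, RNA and DNA sensors, the ISG15 conjugation system, PARP family members with a partner, IFIT and MX proteins, the OAS family with other RNA enzymes, interferon-inducible GTPases and a remainder of interferon-induced genes. At 1 day after the operation all 48 were among the 50600 genes of the count table and all 48 passed the filter on low counts, as did 14266 genes in all. At 12 hours 46 were in the table of 17127 genes, 44 passed the filter among 12548 genes, Mx1 and Mx2 were not analysed here, and Batf2 and Cmpk2 were under the filter.

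At 1 day there were 4 groups of 3 livers, HMRKO + MI, LC + MI, HMRKO + sham and LC + sham. At 12 hours there were 2 groups of 3 livers, C57 + MI and C57 + sham. For MI the left anterior descending artery of the heart was tied off for good, and the sham operation left it untied. All mice are labelled as C57BL/6 at post natal week 12, and the methods of the study describe them as males. HMRKO mice carried floxed alleles of MR, the mineralocorticoid receptor encoded by Nr3c2, together with Cre recombinase driven by the albumin promoter, so the deletion was directed to hepatocytes and other liver cells keep the gene. LC mice were littermates with the same floxed alleles and no Cre, and the labels call them wild type. The C57 mice are labelled wild type too. For the 1 day MI livers the operation was read from the design text of the study, as were the times of all groups, since GEO's labels leave these out. The time of day at which livers were taken is not given in the sources used here, nor is anything on cages or litters, so p-values measure the spread between these livers.

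Interferons are secreted proteins that warn cells of infection or of misplaced nucleic acid. Type I interferons bind a receptor on nearly every cell, Janus kinases then activate STAT proteins, and these join IRF9 into a complex that binds the interferon-stimulated response element in front of target genes. Interferon gamma has a receptor of its own, acts mainly at the gamma-activated sequence and raises IRF1 and many GTPases. In liver, hepatocytes, Kupffer cells and endothelial cells all respond, and a basal level of these genes is kept up in the absence of infection.

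Promoter sequence was looked at first, because the response element is what many interferon-stimulated genes are known to share and the choice of the list did not use sequence. At least 1 window of 300 bases, with 250 before and 50 after an annotated start, was given in RefSeq on the build GRCm38.p6 for 35 of the 48 genes. Some genes had more than 1 window, and a gene was counted where any of its windows held a match. The response element was searched on both strands as GAAA, any 2 bases and GAAA, and the gamma-activated sequence as TTCNNNGAA, and matches of the 2 motifs may overlap. The response element was found for 17 of the 35 genes (48.6%), against 1079 of all 27025 genes with a window (3.99%). The gamma-activated sequence was found for 9 of 35 (25.7%), against 2582 of 27025 (9.55%). In the sequences below, written in the direction of the gene, capitals mark the matches to the response element. Bst2 (chr8:71537423-71537722, minus strand) and Ifih1 (chr2:62646206-62646505, minus strand) are shown because they hold the element and were lower after MI in LC livers. Igtp (chr11:58199306-58199605, plus strand) and Isg15 (chr4:156200769-156201068, minus strand) are shown because they hold it and their difference after MI depended on genotype, and they were picked after their values were seen.
Bst2: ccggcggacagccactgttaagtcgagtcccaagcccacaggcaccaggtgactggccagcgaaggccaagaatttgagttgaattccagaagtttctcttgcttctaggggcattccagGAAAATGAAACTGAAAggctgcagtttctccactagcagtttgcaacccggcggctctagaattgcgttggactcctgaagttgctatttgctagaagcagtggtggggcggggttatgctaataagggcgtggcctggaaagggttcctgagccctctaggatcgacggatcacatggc
Ifih1: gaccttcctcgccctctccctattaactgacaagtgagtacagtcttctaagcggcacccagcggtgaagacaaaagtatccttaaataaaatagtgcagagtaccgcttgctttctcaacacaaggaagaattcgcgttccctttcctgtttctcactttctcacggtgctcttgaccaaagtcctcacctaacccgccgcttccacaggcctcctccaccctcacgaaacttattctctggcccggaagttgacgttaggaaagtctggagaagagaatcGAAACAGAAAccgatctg
Igtp: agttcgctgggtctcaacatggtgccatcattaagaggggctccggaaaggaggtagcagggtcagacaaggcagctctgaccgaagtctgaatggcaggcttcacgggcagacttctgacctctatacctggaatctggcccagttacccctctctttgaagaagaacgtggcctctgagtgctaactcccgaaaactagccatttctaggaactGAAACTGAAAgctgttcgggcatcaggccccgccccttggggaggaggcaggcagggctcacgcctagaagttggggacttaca
Isg15: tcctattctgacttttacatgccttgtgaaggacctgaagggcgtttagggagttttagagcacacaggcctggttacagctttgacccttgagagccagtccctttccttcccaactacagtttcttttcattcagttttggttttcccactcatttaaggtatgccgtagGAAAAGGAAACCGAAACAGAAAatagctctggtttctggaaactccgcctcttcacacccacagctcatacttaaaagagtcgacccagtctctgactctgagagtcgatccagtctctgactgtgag
The Bst2 window held 2 matches that overlap, Isg15 held 3 in a run, and Ifih1 and Igtp held 1 each. In the Ifih1 window the match lay 32 bases after the start, whereas in the other printed windows it lay before the start. A match to these letters is a description of the window and shows no binding.

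Expression is given as CPM, the count of a gene scaled to the TMM-corrected library total, a level that does not correct for gene length, and was tested with the edgeR quasi-likelihood test. A gene is said to have risen or fallen where its adjusted p, by Benjamini-Hochberg over all genes tested, was under 0.05. Library totals were 19098704 to 28945526 counts in HMRKO + MI, 23438424 to 28001094 in LC + MI, 21164728 to 22621385 in HMRKO + sham and 25457546 to 26110605 in LC + sham. The deleted gene was checked first. Nr3c2 was at 0.895, 1.10 and 0.913 CPM in HMRKO + MI livers and 3.56, 2.13 and 1.90 CPM in LC + MI livers. The level was 2.93, 3.76 and 2.55 CPM in HMRKO + sham livers and 5.599, 6.70 and 4.71 CPM in LC + sham livers. Each HMRKO group lay below the LC group of its operation. The mean was 3.08 CPM in HMRKO + sham and 5.67 CPM in LC + sham livers. After MI it was 0.968 CPM in HMRKO and 2.53 CPM in LC livers. A large part of the Nr3c2 reads thus remained in HMRKO + sham livers, whose values overlapped those of LC + MI livers. The paper, by contrast, describes MR in its knockout livers as close to undetectable. The source of this difference was not tested. Replicate 1 of LC + MI stood apart in its share of mitochondrial counts (18.9%), and HMRKO + sham replicate 2 was next at 15.6%, with the other livers at 7.53 to 12.3%. In bulk liver, fewer cells of a type and less RNA per cell cannot be told apart.

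More interferon-stimulated genes fell than rose in each comparison that involves MI. In HMRKO + MI against HMRKO + sham, 30 of the 48 members fell and 2 rose, which is 62.5% lower and 4.17% higher, where 21.7% of all genes tested were lower and 22% higher. In HMRKO + MI against LC + MI, 20 fell and 2 rose (41.7% and 4.17%), against 16.2% and 14.6% of all genes. In LC + MI against LC + sham, 7 fell and none rose (14.6% lower), against 2.33% of all genes lower and 2.68% higher. In HMRKO + sham against LC + sham, none passed in either direction in edgeR or in DESeq2, 4 had an unadjusted p under 0.05, and 0.014% of all genes were lower and 0.021% higher. The median log2 fold change of the members was -0.89, -0.67, -0.36 and -0.17 in these 4 comparisons, where the median of all genes was 0.01, -0.01, 0.01 and -0.01. All HMRKO + MI livers lay below all HMRKO + sham livers for 72.9% of the members, against 27.5% of all genes. They lay below all LC + MI livers for 52.1% of the members, against 24.7% of all genes. The 4 comparisons share livers, so their counts are not independent of each other. Whichever single liver was left out, 25 of the 32 calls held in HMRKO + MI against HMRKO + sham, 13 of 22 in HMRKO + MI against LC + MI and 1 of 7 in LC + MI against LC + sham.

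**Figure D1:**
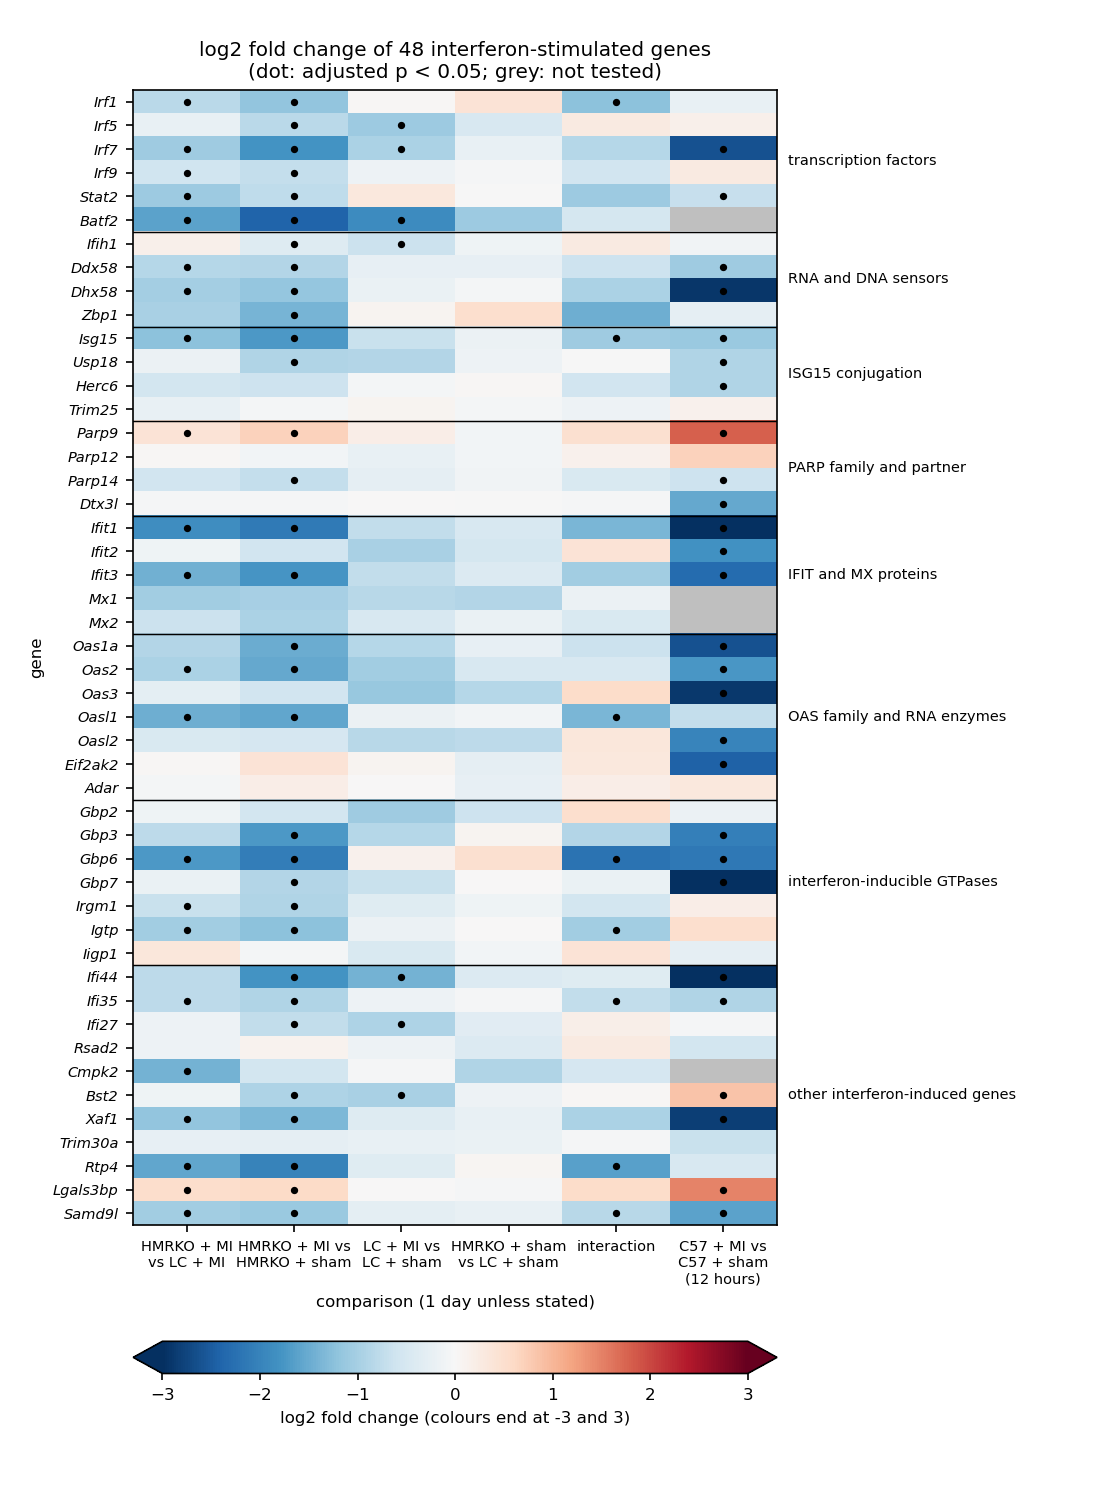
Log2 fold change of each of the 48 genes (rows, by role) in the 5 comparisons at 1 day and in the 1 comparison at 12 hours (columns), where blue is lower and red is higher in the group named first and a dot marks an adjusted p under 0.05 in edgeR. Dots are most frequent for HMRKO + MI versus HMRKO + sham (32 genes) and absent for HMRKO + sham versus LC + sham, and Parp9 and Lgals3bp are red with a dot in 3 columns.

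The level of the set was also read liver by liver, as the median over the 48 members of log2(CPM + 0.5) less its mean in the LC + sham livers. It was -1.04, -0.97 and -0.86 in HMRKO + MI livers and 0.00, -0.61 and -0.53 in LC + MI livers, against -0.12, -0.20 and -0.10 in HMRKO + sham livers and 0.30, -0.04 and -0.26 in LC + sham livers. The HMRKO + MI livers were the lowest of the 12. LC + MI replicate 1, the liver with the largest mitochondrial share, was above all HMRKO + sham livers, and LC + sham replicate 1 was the highest liver for 27 of the 48 members. The LC groups thus overlapped on this measure. Without LC + MI replicate 1, 11 members fell in LC + MI against LC + sham, 13 fell in HMRKO + MI against LC + MI, and 3 passed lower in the interaction described below. Over all genes, 554, 1369 and 727 were lower there, against 332, 2311 and 1213 with all livers.

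**Figure D2:**
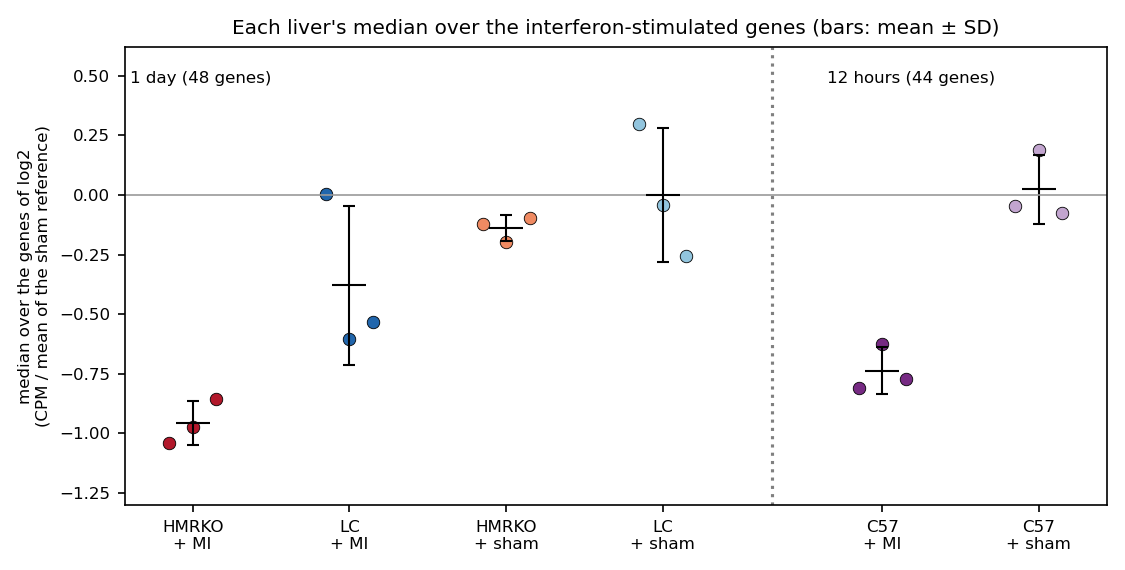
Median over the interferon-stimulated genes of log2(CPM + 0.5) less its mean in the sham livers (LC + sham at 1 day and C57 + sham at 12 hours) for each liver, with bars for the group mean ± SD (n = 3). The 3 HMRKO + MI livers lie at -1.04 to -0.86, below the other 9 livers at 1 day, and the 3 C57 + MI livers at -0.81 to -0.63 lie below the C57 + sham livers.

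All 6 transcription factors of the list fell in HMRKO + MI against HMRKO + sham, where 21.7% of all genes were lower. In HMRKO + MI against LC + MI 5 fell, where 16.2% of all genes were lower. In LC + MI against LC + sham 3 fell (Irf5, Irf7 and Batf2), where 2.33% of all genes were lower. These counts by role and those given below are small, so nothing is read from any of them. Irf7, which amplifies interferon production once induced, was at 12.6, 14.1 and 14.006 CPM in HMRKO + MI livers and 36.0, 24.1 and 25.8 CPM in LC + MI livers. The level was 47.2, 46.4 and 48.8 CPM in HMRKO + sham livers and 73.3, 51.9 and 39.6 CPM in LC + sham livers. The HMRKO + MI, LC + MI and sham livers formed 3 steps with no overlap between them. Irf7 was 3.49-fold lower in HMRKO + MI than in HMRKO + sham (log2 fold change -1.80 ± 0.21 SE, adjusted p = 7e-05, edgeR), 2.11-fold lower than in LC + MI (-1.07 ± 0.21, adjusted p = 0.0034) and, in LC livers, 1.92-fold lower after MI than after sham (-0.94 ± 0.20, adjusted p = 0.023).

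Irf1, a factor induced above all by interferon gamma, was at 14.5, 23.9 and 18.5 CPM in HMRKO + MI livers and 40.5, 29.9 and 30.3 CPM in LC + MI livers. The level was 44.3, 45.4 and 41.0 CPM in HMRKO + sham livers and 39.4, 29.2 and 29.4 CPM in LC + sham livers. Only the HMRKO + MI livers stood below the others, and LC + MI and LC + sham livers held nearly the same values. Irf1 was 2.29-fold lower in HMRKO + MI than in HMRKO + sham (-1.19 ± 0.19, adjusted p = 0.00049, edgeR) and 1.76-fold lower than in LC + MI (-0.82 ± 0.19, adjusted p = 0.0082), and its difference between LC + MI and LC + sham was 0.04 ± 0.19 (adjusted p = 0.94). Irf9, the DNA-binding subunit that joins STAT proteins, was at 22.0, 23.2 and 24.3 CPM in HMRKO + MI livers and 42.2, 28.9 and 34.4 CPM in LC + MI livers. The level was 36.2, 41.2 and 36.9 CPM in HMRKO + sham livers and 47.1, 33.4 and 36.5 CPM in LC + sham livers. Again the HMRKO + MI livers were below all others, with falls of 0.72 on the log2 scale against HMRKO + sham (adjusted p = 0.0036, edgeR) and 0.60 against LC + MI (adjusted p = 0.015).

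Stat2, the STAT of the type I response, was at 86.0, 82.97 and 82.5 CPM in HMRKO + MI livers and 239.5, 142 and 156 CPM in LC + MI livers. The level was 105, 178 and 141 CPM in HMRKO + sham livers and 213, 108 and 108 CPM in LC + sham livers. The HMRKO + MI livers were tightly grouped and lowest, while replicate 1 of each LC group was far above its other livers. Stat2 fell in HMRKO + MI against LC + MI (-1.10 ± 0.28, adjusted p = 0.013, edgeR) and against HMRKO + sham (-0.76 ± 0.28, adjusted p = 0.045), and the first of these calls was lost without LC + MI replicate 1 (adjusted p = 0.06). The call against HMRKO + sham was lost without any of 6 livers, which were every HMRKO + MI liver, HMRKO + sham replicates 2 and 3 and LC + MI replicate 3 (adjusted p up to 0.16).

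Irf5, a factor downstream of Toll-like receptors in macrophages and dendritic cells, was at 4.03, 5.26 and 3.40 CPM in HMRKO + MI livers and 6.81, 4.58 and 3.49 CPM in LC + MI livers. The level was 7.33, 8.96 and 6.10 CPM in HMRKO + sham livers and 11.8, 11.5 and 7.99 CPM in LC + sham livers. MI and sham livers of each genotype did not overlap, and the MI livers of the genotypes did. Irf5 fell after MI by 1.08 ± 0.26 on the log2 scale in LC livers (adjusted p = 0.033, edgeR) and by 0.81 ± 0.26 in HMRKO livers (adjusted p = 0.025). Batf2, an interferon-induced partner of IRF1 in macrophages, was a rare transcript at 0.0559, 0.183 and 0.0507 CPM in HMRKO + MI livers and 0.250, 0.281 and 0.450 CPM in LC + MI livers, against 0.419, 0.723 and 0.614 CPM in HMRKO + sham livers and 1.44, 0.999 and 1.31 CPM in LC + sham livers. These HMRKO + MI values stand for 1, 5 and 1 reads. Its log2 fold change was -2.41 ± 0.52 in HMRKO + MI against HMRKO + sham (adjusted p = 0.0027, edgeR), -1.89 ± 0.40 in LC + MI against LC + sham (adjusted p = 0.021) and -1.62 ± 0.55 in HMRKO + MI against LC + MI (adjusted p = 0.041), and the last call was lost in DESeq2 (adjusted p = 0.077), with no low-count filter in edgeR (0.073) and without any of 7 livers (adjusted p up to 0.14).

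The 4 sensors of foreign nucleic acid all fell in HMRKO + MI against HMRKO + sham. Ddx58, which encodes the RNA sensor RIG-I, was at 9.06, 8.36 and 10.1 CPM in HMRKO + MI livers and 19.5, 14.2 and 16.2 CPM in LC + MI livers. The level was 15.8, 17.006 and 17.4 CPM in HMRKO + sham livers and 22.6, 16.8 and 19.8 CPM in LC + sham livers. The HMRKO + MI livers were below the other 9. Ddx58 was 1.83-fold lower than in HMRKO + sham (-0.87 ± 0.15, adjusted p = 0.00087, edgeR) and 1.81-fold lower than in LC + MI (-0.86 ± 0.15, adjusted p = 0.0024). Ifih1, which encodes the related sensor MDA5, was at 10.8, 11.6 and 13.3 CPM in HMRKO + MI livers and 11.8, 9.73 and 10.7 CPM in LC + MI livers. The level was 14.996, 15.1 and 16.5 CPM in HMRKO + sham livers and 16.98, 18.2 and 15.5 CPM in LC + sham livers. Here the operation and not the genotype separated the livers. Ifih1 fell after MI by 0.66 ± 0.13 on the log2 scale in LC livers (adjusted p = 0.018, edgeR) and by 0.38 ± 0.13 in HMRKO livers (adjusted p = 0.032), and its difference between HMRKO + MI and LC + MI was 0.15 ± 0.13 (adjusted p = 0.41). Dhx58, which encodes LGP2, fell in both comparisons of HMRKO + MI (-1.15 and -1.03), and Zbp1, a sensor of Z-form nucleic acid, fell against HMRKO + sham (-1.41, adjusted p = 0.007) and was at -0.98 against LC + MI (adjusted p = 0.052).

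**Figure D3:**
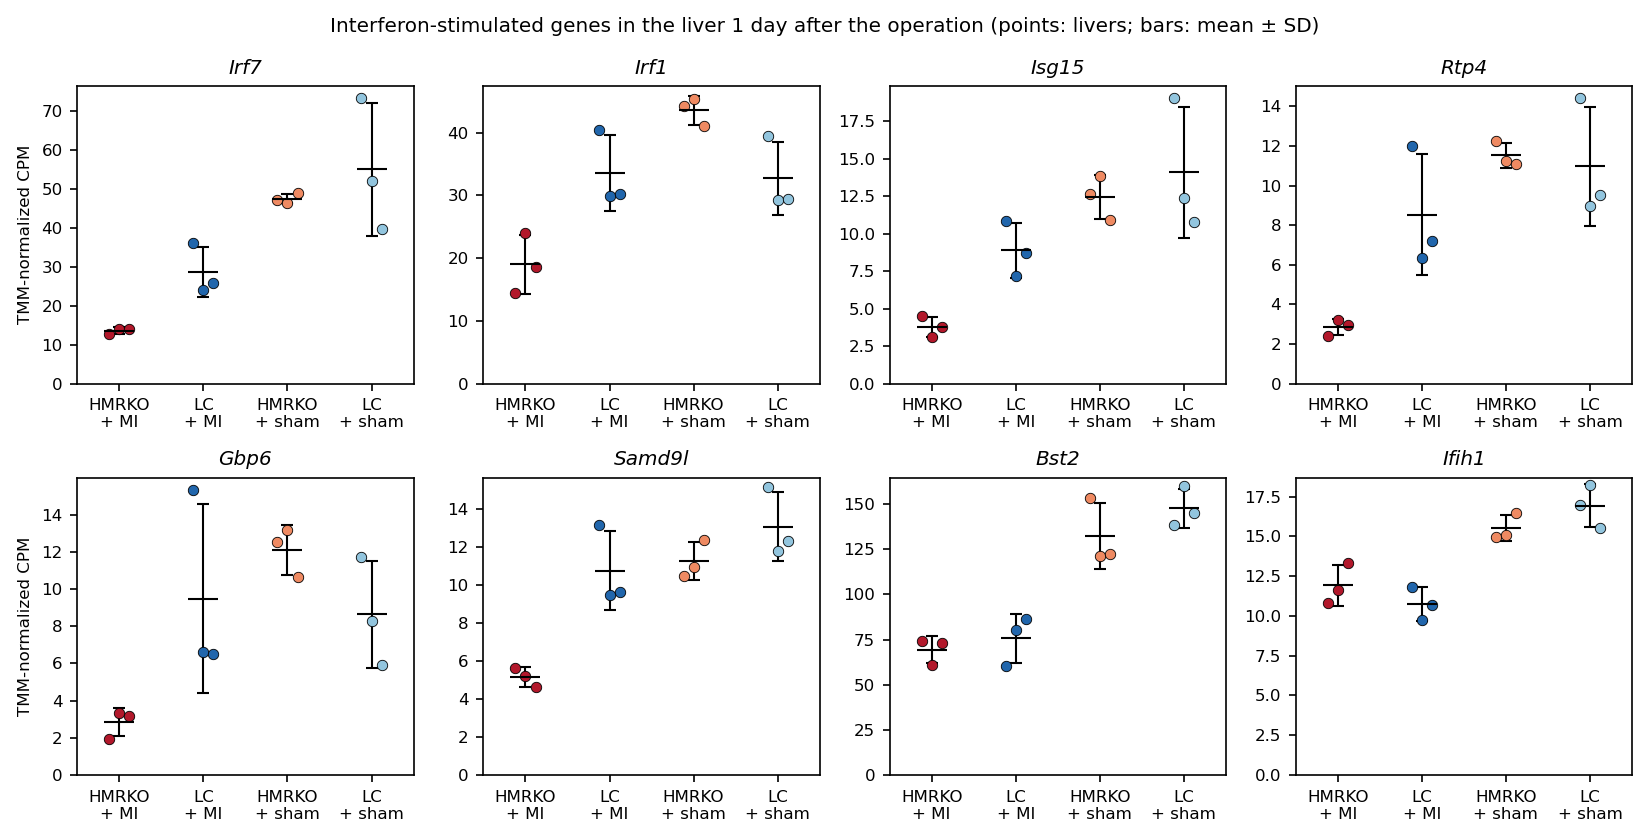
TMM-normalized CPM of 8 interferon-stimulated genes in each liver 1 day after the operation (points), with bars for the mean ± SD of the 3 livers of a group. The genes were picked among those called, so a separation of the groups goes with the choice. For Irf7, Irf1, Isg15, Rtp4, Gbp6 and Samd9l the HMRKO + MI livers lie below all others, and for Bst2 and Ifih1 the MI livers of both genotypes lie below all sham livers. Over all genes tested, all HMRKO + MI livers were below all HMRKO + sham livers for 27.5% and below all LC + MI livers for 24.7%. All LC + MI livers were below all LC + sham livers for 12.1%.

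Isg15 encodes a ubiquitin-like protein that is attached to other proteins during the response. Isg15 was at 4.47, 3.10 and 3.76 CPM in HMRKO + MI livers and 10.8, 7.16 and 8.72 CPM in LC + MI livers. The level was 12.7, 13.8 and 10.9 CPM in HMRKO + sham livers and 19.1, 12.4 and 10.8 CPM in LC + sham livers. The HMRKO + MI livers were again lowest, and the LC groups overlapped. Isg15 was 3.31-fold lower in HMRKO + MI than in HMRKO + sham (-1.73 ± 0.24, adjusted p = 0.00019, edgeR) and 2.36-fold lower than in LC + MI (-1.24 ± 0.24, adjusted p = 0.0033). Usp18, the protease that removes ISG15 and dampens the receptor, fell in HMRKO + MI against HMRKO + sham (-0.90, adjusted p = 0.015). Herc6, the mouse ligase for ISG15, and Trim25, a ligase that acts on RIG-I, passed in none of the comparisons at 1 day.

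Parp9 was 1 of 2 members that went the other way. Parp9 encodes a member of the ADP-ribosyltransferase family that acts with the ligase Dtx3l. It was at 41.8, 36.8 and 48.4 CPM in HMRKO + MI livers and 34.9, 30.4 and 30.3 CPM in LC + MI livers. The level was 25.9, 28.9 and 23.9 CPM in HMRKO + sham livers and 26.2, 31.1 and 25.5 CPM in LC + sham livers. The HMRKO + MI livers were above all others. Parp9 rose 1.61-fold against HMRKO + sham (0.69 ± 0.14, adjusted p = 0.0019, edgeR) and 1.33-fold against LC + MI (0.41 ± 0.14, adjusted p = 0.041), and the second call was lost with no low-count filter (adjusted p = 0.09), with only the compared groups in the fit (0.06) and without any of 6 livers (adjusted p up to 0.15). Dtx3l, its neighbour on the chromosome, was at -0.03 and -0.05 in these comparisons (adjusted p = 0.91 and 0.86), and Parp14, another family member, fell against HMRKO + sham (-0.73, adjusted p = 0.019).

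Of the IFIT and MX proteins, Ifit1 and Ifit3 fell in both comparisons of HMRKO + MI. Ifit1, which binds viral RNA that lacks a host cap, was at 1.34, 0.986 and 1.73 CPM in HMRKO + MI livers and 7.91, 3.54 and 3.36 CPM in LC + MI livers, against 4.65, 6.94 and 6.01 CPM in HMRKO + sham livers and 11.8, 6.52 and 6.39 CPM in LC + sham livers. Ifit3, its partner, was at 2.63, 1.94 and 3.30 CPM in HMRKO + MI livers and 7.56, 5.31 and 8.44 CPM in LC + MI livers, against 8.71, 7.37 and 10.7 CPM in HMRKO + sham livers and 16.6, 11.2 and 7.70 CPM in LC + sham livers. For both genes the HMRKO + MI livers were below the other 9. Against LC + MI the fall was 3.65-fold for Ifit1 (-1.87 ± 0.39, adjusted p = 0.0045, edgeR) and 2.73-fold for Ifit3 (-1.45 ± 0.30, adjusted p = 0.0046), and against HMRKO + sham it was 4.38-fold (-2.13 ± 0.39, adjusted p = 0.001) and 3.43-fold (-1.78 ± 0.30, adjusted p = 0.00067). Ifit2 and the dynamin-like Mx1 and Mx2 did not pass, and Mx1 was at -1.004 ± 0.57 against HMRKO + sham (adjusted p = 0.17).

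In the OAS family, whose enzymes make a messenger that activates RNase L, 3 of 5 members fell in HMRKO + MI against HMRKO + sham (Oas1a, Oas2 and Oasl1) and Oas2 and Oasl1 fell against LC + MI. Oasl1, a member known in mouse to hold back translation of Irf7, was at 2.07, 2.19 and 2.39 CPM in HMRKO + MI livers and 9.17, 4.74 and 4.53 CPM in LC + MI livers. The level was 7.498, 5.01 and 7.15 CPM in HMRKO + sham livers and 7.47, 5.81 and 7.58 CPM in LC + sham livers. The HMRKO + MI livers did not reach the level of any other liver, and those of LC + MI and LC + sham overlapped. Oasl1 was 2.75-fold lower in HMRKO + MI than in LC + MI (-1.46 ± 0.28, adjusted p = 0.0031, edgeR) and 2.96-fold lower than in HMRKO + sham (-1.56 ± 0.28, adjusted p = 0.0009). The other RNA enzymes of this role, Eif2ak2, the kinase PKR that stops translation, and Adar, which edits RNA, were at 0.41 and 0.20 against HMRKO + sham and did not pass (adjusted p = 0.11 and 0.41).

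Among the interferon-inducible GTPases, which attack vacuoles that hold pathogens, 5 of 7 fell in HMRKO + MI against HMRKO + sham (Gbp3, Gbp6, Gbp7, Irgm1 and Igtp) and 3 of 7 against LC + MI (Gbp6, Irgm1 and Igtp). None passed in LC + MI against LC + sham. Gbp6 was at 1.96, 3.32 and 3.20 CPM in HMRKO + MI livers and 15.3, 6.63 and 6.50 CPM in LC + MI livers, against 12.5, 13.2 and 10.6 CPM in HMRKO + sham livers and 11.7, 8.26 and 5.94 CPM in LC + sham livers. Igtp, an immunity-related GTPase, was at 8.05, 13.8 and 12.8 CPM in HMRKO + MI livers and 24.8, 22.2 and 25.0 CPM in LC + MI livers, against 27.6, 26.7 and 27.7 CPM in HMRKO + sham livers and 37.2, 23.2 and 21.2 CPM in LC + sham livers. In both genes the HMRKO + MI livers stood alone, below the other 9. Gbp6 was 4.24-fold lower in HMRKO + MI than in HMRKO + sham (-2.09 ± 0.36, adjusted p = 0.00068, edgeR) and 3.30-fold lower than in LC + MI (-1.72 ± 0.35, adjusted p = 0.0043), and Igtp was 2.35-fold and 2.07-fold lower (-1.23 ± 0.22, adjusted p = 0.00096, and -1.05 ± 0.22, adjusted p = 0.0051). Gbp6, Ifit3, Oas1a and Trim30a have near-identical copies in the mouse genome, and reads of a copy cannot be told apart here.

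Of the remaining interferon-induced genes, 7 of 11 fell and 1 rose in HMRKO + MI against HMRKO + sham. Bst2, which encodes tetherin, a membrane protein that holds budding viruses, was at 74.3, 60.7 and 73.1 CPM in HMRKO + MI livers and 60.3, 80.2 and 86.4 CPM in LC + MI livers. The level was 154, 121 and 122 CPM in HMRKO + sham livers and 139, 159.8 and 145 CPM in LC + sham livers. No MI liver reached a sham liver, and the genotypes overlapped. Bst2 was 1.95-fold lower after MI in LC livers (-0.97 ± 0.16, adjusted p = 0.0084, edgeR) and 1.91-fold lower in HMRKO livers (-0.93 ± 0.16, adjusted p = 0.00083), and it was the single member whose call in LC + MI against LC + sham held whichever liver was left out. Ifi27, a small hydrophobic protein, was at 28.4, 31.2 and 32.5 CPM in HMRKO + MI livers and 40.6, 27.6 and 34.9 CPM in LC + MI livers, against 68.3, 35.2 and 50.6 CPM in HMRKO + sham livers and 59.1, 73.2 and 62.8 CPM in LC + sham livers. Ifi44, an antiviral interferon-induced gene, was at 0.280, 0.767 and 0.304 CPM in HMRKO + MI livers and 0.701, 1.09 and 0.657 CPM in LC + MI livers, against 1.89, 1.16 and 1.89 CPM in HMRKO + sham livers and 2.76, 1.81 and 2.02 CPM in LC + sham livers. Each MI group was below the sham group of its genotype for Ifi27, and all MI livers were below all sham livers for Ifi44. The log2 fold changes after MI were -0.92 ± 0.21 for Ifi27 (adjusted p = 0.029, edgeR) and -1.43 ± 0.37 for Ifi44 (adjusted p = 0.045) in LC livers and -0.74 ± 0.21 (adjusted p = 0.013) and -1.79 ± 0.41 (adjusted p = 0.0036) in HMRKO livers.

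Rtp4, a chaperone of membrane receptors, was at 2.40, 3.21 and 2.94 CPM in HMRKO + MI livers and 12.0, 6.35 and 7.20 CPM in LC + MI livers, against 12.2, 11.2 and 11.1 CPM in HMRKO + sham livers and 14.4, 8.96 and 9.53 CPM in LC + sham livers. Samd9l, a restriction factor for poxviruses, was at 5.65, 5.22 and 4.62 CPM in HMRKO + MI livers and 13.1, 9.45 and 9.62 CPM in LC + MI livers, against 10.5, 10.9 and 12.4 CPM in HMRKO + sham livers and 15.1, 11.8 and 12.3 CPM in LC + sham livers. Ifi35, a leucine zipper protein that pairs with Nmi, was at 22.1, 23.4 and 22.4 CPM in HMRKO + MI livers and 47.3, 34.2 and 35.8 CPM in LC + MI livers, against 40.9, 48.5 and 37.6 CPM in HMRKO + sham livers and 39.1, 47.5 and 44.5 CPM in LC + sham livers. In all of these the HMRKO + MI livers were separate from the rest. Rtp4 was 4.01-fold lower in HMRKO + MI than in HMRKO + sham (-2.004 ± 0.26, adjusted p = 0.00013, edgeR) and 2.95-fold lower than in LC + MI (-1.56 ± 0.26, adjusted p = 0.0018). Samd9l was 2.18-fold and 2.07-fold lower (adjusted p = 0.00034 and 0.0016), and Ifi35 was 1.87-fold and 1.72-fold lower (adjusted p = 0.00062 and 0.0032). Lgals3bp, a secreted glycoprotein that binds galectins, was at 41.3, 53.7 and 53.1 CPM in HMRKO + MI livers and 33.7, 36.8 and 32.1 CPM in LC + MI livers, against 39.1, 26.8 and 33.3 CPM in HMRKO + sham livers and 32.9, 34.98 and 33.2 CPM in LC + sham livers. It rose in HMRKO + MI, 1.49-fold against HMRKO + sham (0.58 ± 0.15, adjusted p = 0.0083, edgeR) and 1.44-fold against LC + MI (0.53 ± 0.15, adjusted p = 0.02), and the second call was lost without any of 4 livers (adjusted p up to 0.071).

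In LC + MI against LC + sham, the members that fell were Bst2, Ifih1, Batf2, Irf7, Ifi27, Irf5 and Ifi44, and 3 of them changed by more than 1 log2 unit (Batf2, Irf5 and Ifi44). All 3 LC + MI livers were below all 3 LC + sham livers for 12 of 48 members (25%), against 12.1% of all genes, and above them for none. DESeq2 called 10 members lower and 0 higher, where 642 of all genes were lower and 632 higher. By edgeR, a further 12 members had an unadjusted p under 0.05, all of them lower, among them Usp18 (-0.88, adjusted p = 0.071) and Oas2 (-1.05, adjusted p = 0.064). Leaving out 1 liver gave between 1 and 11 members lower, with 4, 2 and 4 without LC + sham replicates 1, 2 and 3 and 11, 1 and 1 without LC + MI replicates 1, 2 and 3. The number lower over all genes moved as well, from 332 with all livers to 301, 106 and 132 without those LC + sham livers. Without those LC + MI livers it was 554, 55 and 62.

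Between sham-operated livers of the 2 genotypes no member passed. Batf2 was the only member with all HMRKO + sham livers below all LC + sham livers (1 of 48, against 5.78% of all genes), at a log2 fold change of -1.09 ± 0.38 (adjusted p = 0.66, edgeR), and Irf1 the only one above (against 5.36% of all genes, 0.41 ± 0.19, adjusted p = 0.84). The fold changes of the members ran between -1.09 and 0.49, with 40 of 48 negative.

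Whether the difference after MI depended on genotype was tested by the interaction, which is the log2 fold change of MI over sham in HMRKO livers minus that in LC livers. It was negative with an adjusted p under 0.05 for 8 of 48 members (16.7%), against 8.5% of all genes, and positive for none, against 6.74%. Of the 19 members with an unadjusted p under 0.05, Parp9 and Lgals3bp were the positive ones. DESeq2 called 12 members negative, where 1609 of all genes were negative and 1214 positive. The 8 were Gbp6 (-2.21 ± 0.48, adjusted p = 0.014, edgeR), Rtp4 (-1.63 ± 0.35, adjusted p = 0.014), Oasl1 (-1.38 ± 0.38, adjusted p = 0.031), Irf1 (-1.23 ± 0.27, adjusted p = 0.014), Isg15 (-1.06 ± 0.33, adjusted p = 0.045), Igtp (-1.05 ± 0.31, adjusted p = 0.038), Samd9l (-0.84 ± 0.24, adjusted p = 0.034) and Ifi35 (-0.74 ± 0.21, adjusted p = 0.035). None of them had fallen in LC + MI against LC + sham, where their log2 fold changes ran between -0.67 for Isg15 and 0.13 for Gbp6. Genes that fell in LC livers, such as Bst2 (0.03 ± 0.23) and Ifih1 (0.28 ± 0.19), gave no interaction that passed. The calls of Gbp6, Irf1 and Rtp4 held whichever liver was left out. The count of 8 became 14 without LC + sham replicate 1, 5 without HMRKO + sham replicate 1, 4 without LC + sham replicate 3, HMRKO + sham replicates 2 or 3 or HMRKO + MI replicates 1 or 2, and 3 without LC + sham replicate 2, LC + MI replicate 1 or HMRKO + MI replicate 3. Over all genes, 1213 were negative with all livers. Leaving out 1 liver gave 583 to 1283, with 1168 without LC + sham replicate 1.

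**Figure D4:**
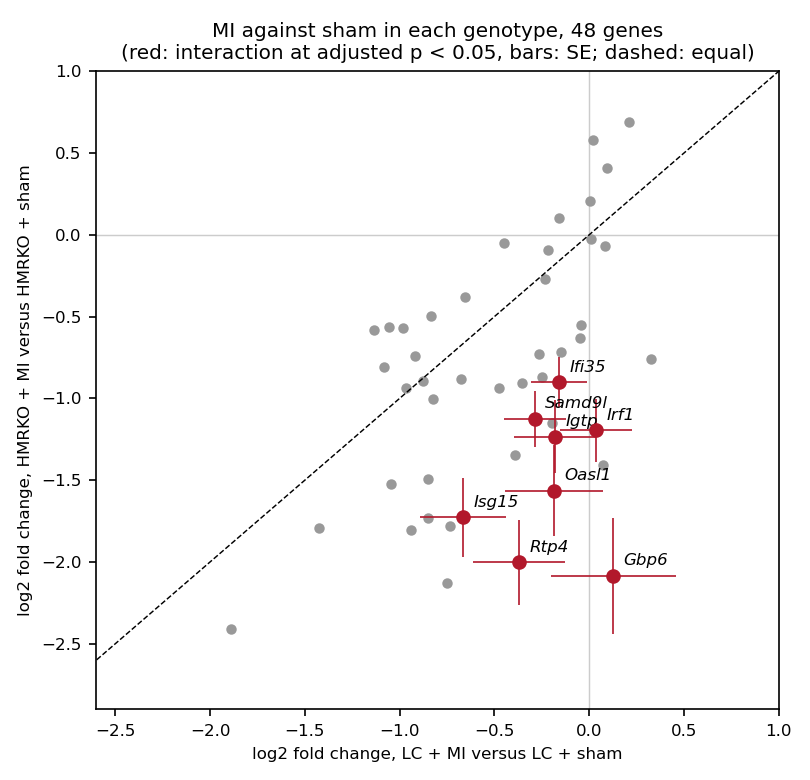
Log2 fold change of MI over sham in HMRKO livers (vertical axis) against that in LC livers (horizontal axis) for the 48 genes, with the 8 genes of an interaction at adjusted p under 0.05 in red with bars of ± SE, and a dashed line where both are equal. The red genes lie below the line, with values between -2.09 (Gbp6) and -0.90 (Ifi35) in HMRKO livers and between -0.67 (Isg15) and 0.13 (Gbp6) in LC livers.

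At 12 hours, C57 + MI libraries held 16745645 to 19190405 estimated counts and C57 + sham libraries 1361506 to 2255782. This gap of 7.42- to 14.1-fold cannot be told apart from the operation. The groups also differed in make-up, as Alb took 3.62 to 5.44% of counts in C57 + MI and 1.58 to 1.86% in C57 + sham. The source of that difference was not tested. More members fell than rose here too. Of 44 members tested, 24 fell (54.5%) and 3 rose (6.82%), where 32% of all genes were lower and 34.3% higher. The median log2 fold change was -0.81, where that of all genes was 0.11. The scale moves these values. In a limma fit of the deposited TPM on the log2(TPM + 1) scale the median of all genes was -0.38, 29.7% of the calls over all genes were higher in place of 51.7%, and 31 members fell and 2 rose, with a member median of -0.98. With all 6 libraries thinned to 1361506 counts, 33 members could be tested, and 18 fell and 3 rose. Of the 9245 genes tested then, 3014 fell and 2843 rose.

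Irf7 was at 20.2, 17.3 and 18.4 CPM in C57 + MI livers, against 118, 121 and 105 CPM in C57 + sham livers. That is 6.15-fold lower (-2.62 ± 0.19, adjusted p = 4.3e-06, edgeR). Stat2 was at 122, 73.8 and 71.4 CPM in C57 + MI livers, against 144, 152 and 134 CPM in C57 + sham livers. It fell by 0.68 ± 0.24 on the log2 scale (adjusted p = 0.028, edgeR), a call lost with no low-count filter (adjusted p = 0.09) and without C57 + MI replicates 2 or 3 or any of the C57 + sham livers (adjusted p up to 0.11). The other factors overlapped between the groups. Irf1 was at 19.9, 15.3 and 19.1 CPM in C57 + MI livers, against 20.03, 16.2 and 27.1 CPM in C57 + sham livers (-0.23 ± 0.24, adjusted p = 0.41). Irf5 was at 5.05, 7.18 and 4.77 CPM in C57 + MI livers, against 6.48, 7.91 and 1.39 CPM in C57 + sham livers (0.15 ± 0.48, adjusted p = 0.79). Irf9 was at 26.2, 20.5 and 29.3 CPM in C57 + MI livers, against 20.6, 21.7 and 20.8 CPM in C57 + sham livers (0.26 ± 0.21, adjusted p = 0.29). Batf2 had 3, 13 and 6 estimated counts in C57 + MI livers, against 1, 2 and 5 in C57 + sham livers, and was not tested.

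Falls of over 5-fold at 12 hours were spread over several roles. Xaf1, which encodes a binder of the apoptosis inhibitor XIAP, was at 4.28, 3.73 and 3.40 CPM in C57 + MI livers, against 28.9, 26.9 and 25.4 CPM in C57 + sham livers (7.07-fold lower, -2.82 ± 0.22, adjusted p = 5.7e-06, edgeR). Dhx58 was at 2.46, 2.07 and 2.72 CPM in C57 + MI livers, against 16.5, 19.4 and 18.8 CPM in C57 + sham livers (7.52-fold lower, -2.91 ± 0.26, adjusted p = 8.9e-06). Ifit1 was at 1.61, 1.45 and 1.16 CPM in C57 + MI livers, against 12.4, 26.9 and 18.8 CPM in C57 + sham livers (13.8-fold lower, -3.79 ± 0.34, adjusted p = 9.4e-06). Ifit1 thus had the lowest fold change of the members, and its estimated counts were 23, 21 and 17 in the deep C57 + MI libraries, against 21, 68 and 54 in the shallow C57 + sham libraries. Gbp7 was at 8.42, 5.25 and 5.45 CPM in C57 + MI livers, against 58.3, 62.1 and 37.5 CPM in C57 + sham livers (8.22-fold lower, -3.04 ± 0.28, adjusted p = 9.8e-06). Eif2ak2 was at 15.2, 14.4 and 11.8 CPM in C57 + MI livers, against 89.0, 85.8 and 47.6 CPM in C57 + sham livers (5.34-fold lower, -2.42 ± 0.26, adjusted p = 2.3e-05). In each of these genes every MI liver was far under every sham liver, and 34% of all genes tested had every MI liver lower. Oas3 was at 1.90, 1.79 and 1.84 CPM in C57 + MI livers, against 23.6, 9.89 and 9.03 CPM in C57 + sham livers (7.39-fold lower, -2.89 ± 0.40, adjusted p = 0.00012). Oas1a was at 1.12, 1.45 and 1.70 CPM in C57 + MI livers, against 7.07, 11.9 and 7.30 CPM in C57 + sham livers (6.12-fold lower, -2.61 ± 0.36, adjusted p = 0.00012). The sham livers of Oas3 were spread more widely than its MI livers. For all the genes of this paragraph, every C57 + sham liver was also above all 12 livers at 1 day. Those 12 livers were at 6.49 to 11.2 CPM for Eif2ak2, 3.52 to 9.44 CPM for Gbp7 and 0.203 to 1.29 CPM for Oas3. So these falls may reflect C57 + sham libraries that stand apart as much as the operation. The 2 tables were made apart, and the source of this difference was not tested.

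Parp9, Lgals3bp and Bst2 rose at 12 hours. Parp9 was at 35.8, 45.7 and 56.6 CPM in C57 + MI livers, against 11.8, 13.0 and 14.9 CPM in C57 + sham livers (3.44-fold higher, 1.78 ± 0.24, adjusted p = 9.5e-05, edgeR). Lgals3bp was at 51.6, 77.9 and 80.8 CPM in C57 + MI livers, against 24.2, 24.5 and 26.4 CPM in C57 + sham livers (2.80-fold higher, 1.48 ± 0.22, adjusted p = 0.0002). These calls held on the TPM scale and without each liver. Bst2 was at 79.5, 44.2 and 50.9 CPM in C57 + MI livers, against 36.5, 25.3 and 35.4 CPM in C57 + sham livers (0.85 ± 0.26, adjusted p = 0.014). The TMM factors that scale the library totals for CPM were 0.756 to 0.851 in C57 + MI and 1.23 to 1.28 in C57 + sham. On the TPM scale, which accounts for length and uses no TMM factor, Bst2 was at 119, 64.3 and 78.3 TPM in C57 + MI livers, against 82.2, 59.4 and 82.3 TPM in C57 + sham livers. The difference did not pass (0.19 on the log2(TPM + 1) scale, adjusted p = 0.55, limma), nor did it without C57 + sham replicate 2 (adjusted p = 0.057, edgeR). Dtx3l, the partner of Parp9, fell (-1.53 ± 0.25, adjusted p = 0.00031).

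**Figure D5:**
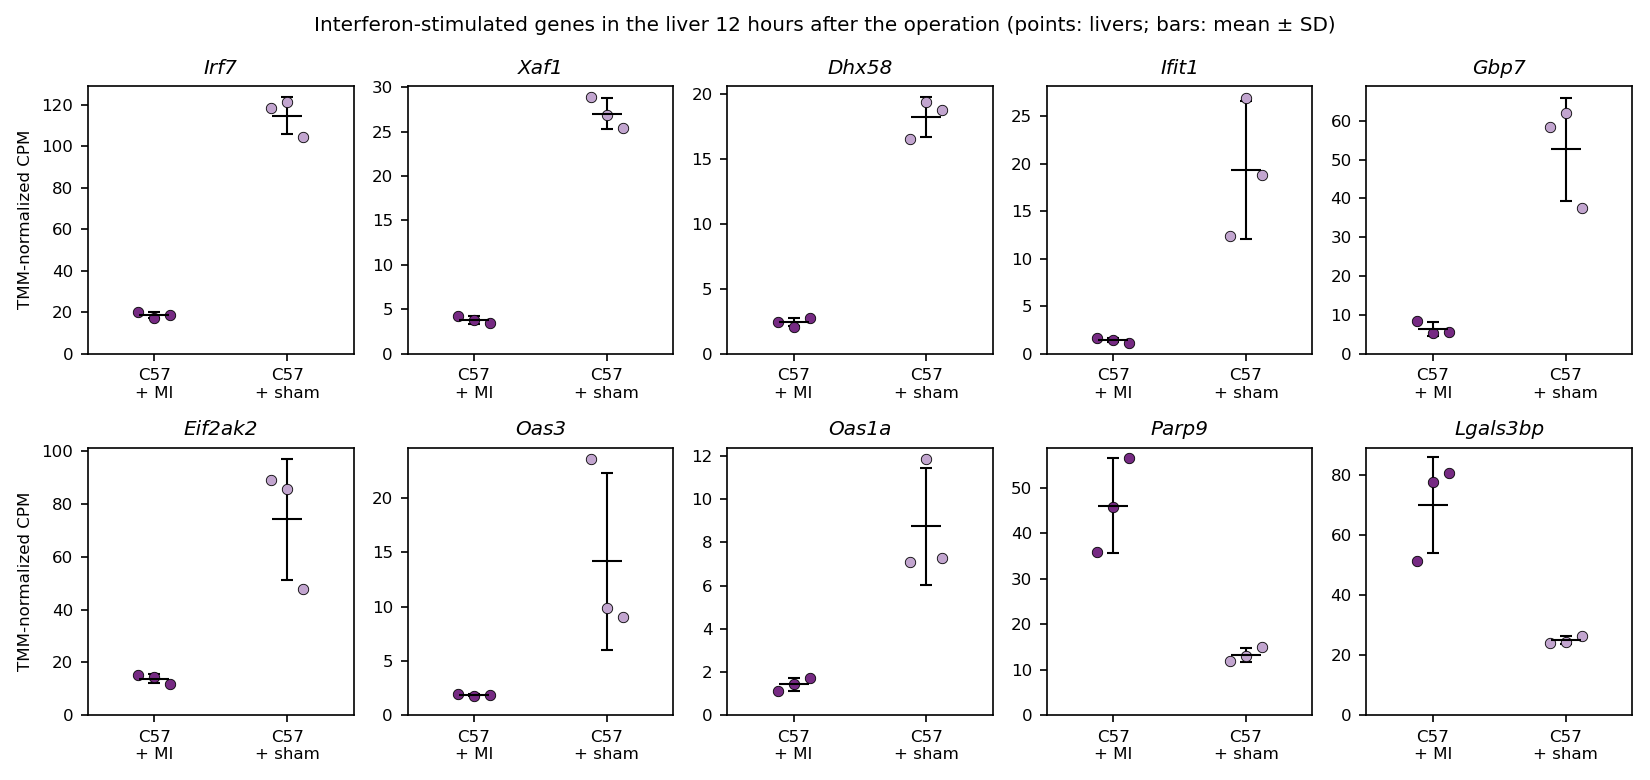
TMM-normalized CPM of the 10 interferon-stimulated genes with the smallest p at 12 hours in each C57 + MI and C57 + sham liver (points), with bars for the mean ± SD of the 3 livers. In every panel the MI livers are separate from the sham livers, below them for 8 genes and above them for Parp9 and Lgals3bp. Over all genes tested, all MI livers were below all sham livers for 34% and above them for 37.8%.

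Of the 27 calls at 12 hours, 20 held whichever liver was left out, and those of Stat2, Ifit2, Usp18, Parp14, Bst2, Isg15 and Herc6 did not. By role, all 3 IFIT genes tested fell at 12 hours, as did 5 of 7 members of the OAS group and 3 of 4 of the ISG15 group (Isg15, Usp18 and Herc6). Falls were also seen for 3 of 7 GTPases (Gbp3, Gbp6 and Gbp7), 2 of 4 sensors (Ddx58 and Dhx58), 2 of 5 transcription factors (Irf7 and Stat2) and 4 of 10 of the remainder (Ifi44, Ifi35, Xaf1 and Samd9l). Of the 4 PARP family members and partner, 2 fell (Dtx3l and Parp14) and Parp9 rose. These counts by role are small and stand beside 32% of all genes lower at 12 hours, so nothing is read from any of them. The immunity-related GTPases Irgm1, Igtp and Iigp1 were at 0.20, 0.49 and -0.28 and did not pass (adjusted p = 0.56, 0.087 and 0.36). By length-corrected level, the highest members in C57 + sham livers were Iigp1 at 81.5, 158 and 122 TPM and Irf7 at 113, 120.0 and 101 TPM, whose ranges overlap. In C57 + MI livers Bst2 was highest, followed by Iigp1 at 54.0, 76.7 and 66.3 TPM with an overlapping range. Irf7 was at 12.4, 10.6 and 11.8 TPM there. The 12 hour and 1 day tables were made apart and were not tested against each other. Side by side, Irf7 and Ifi44 were the members that fell both at 12 hours in C57 livers (2 of 24) and at 1 day in LC livers (2 of 7), with Batf2 not tested at 12 hours. There were 18 members that fell both at 12 hours (of 24) and in HMRKO + MI against HMRKO + sham at 1 day (of 30). With 24 of 44 members tested lower in the first and 30 of 48 in the second, a large overlap arises without a link. Nothing is read from the 18.

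The response element stood in windows of members that fell and of members that did not. Among members with a window, 12 of 21 that fell in HMRKO + MI against HMRKO + sham held it, as did 5 of 13 that did not pass. In HMRKO + MI against LC + MI it was held by 7 of 15 such members that fell and by 10 of 19 that did not pass. For LC + MI against LC + sham the numbers were 2 of 5 and 15 of 30, for the interaction 2 of 6 and 15 of 29, and for 12 hours 10 of 19 and 6 of 13. These are counts of genes, with no test.

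A second list held 46 genes of the interferon pathway outside the members, which are ligands, receptors and kinases, sensors and adaptors, factors and brakes. At 1 day 37 of them were tested. None passed in LC + MI against LC + sham (edgeR, with 4 at an unadjusted p under 0.05 and a median log2 fold change of -0.07), where 2.33% of all genes were lower and 2.68% higher. In HMRKO + MI against LC + MI 6 of 37 rose and 6 fell, where 14.6% of all genes were higher and 16.2% lower. In HMRKO + MI against HMRKO + sham 8 rose and 10 fell, where 22% of all genes were higher and 21.7% lower. The shares of the list were thus close to those of all genes. The interferons on the list were scarcely seen at 1 day and were not analysed at 12 hours. Other interferon genes were not on the list. Ifnb1, Ifna2 and Ifna4 had 0 counts in all 12 livers, which allows up to 0.104 to 0.168 CPM by liver (3 counts a library), and Ifng reached at most 0.0718 CPM, in LC + sham, and was at 0 in the other groups. Il18, a cytokine that raises interferon gamma in lymphocytes, and Il15, a growth factor of natural killer cells, were the ligands tested. Il18 was at 1.79, 2.41 and 2.94 CPM in HMRKO + MI livers and 8.67, 4.99 and 4.88 CPM in LC + MI livers. The level was 12.7, 10.9 and 11.6 CPM in HMRKO + sham livers and 9.83, 12.9 and 9.94 CPM in LC + sham livers. Il18 fell against HMRKO + sham (-2.29 ± 0.25, adjusted p = 4.8e-05, edgeR), against LC + MI (-1.36 ± 0.25, adjusted p = 0.0027) and in the interaction (-1.47 ± 0.34, adjusted p = 0.017). Il15 was at 0.336, 0.292 and 0.101 CPM in HMRKO + MI livers and 1.15, 0.563 and 0.588 CPM in LC + MI livers. The level was 0.922, 0.626 and 1.58 CPM in HMRKO + sham livers and 1.94, 0.851 and 0.635 CPM in LC + sham livers. All HMRKO + MI livers were below the others. Il15 fell against HMRKO + sham (-2.07 ± 0.59, adjusted p = 0.013, edgeR) and did not pass against LC + MI (-1.60 ± 0.61, adjusted p = 0.06) or in the interaction (adjusted p = 0.21).

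Irf3, the first factor activated by the sensors, fell in HMRKO + MI against LC + MI (-0.64 ± 0.13, adjusted p = 0.0037, edgeR). Rises in HMRKO + MI against LC + MI were seen for the kinase Tbk1, which activates Irf3 (1.00 ± 0.15, adjusted p = 0.0011), for the phosphatases Ptpn2 and Ptpn11, which act on Janus kinases and STATs (0.89 and 0.76, adjusted p = 0.0018 and 0.0023), and for Irf2, which competes with IRF1 for its sites (0.68, adjusted p = 0.0039). Against HMRKO + sham, Tbk1, Ptpn2, Ptpn11 and Stat3, the factor of the interleukin 6 pathway, rose by 0.95, 0.89, 0.78 and 0.94 (adjusted p = 0.00037, 0.00059, 0.00071 and 0.0011). In the interaction 5 of 37 were positive and 4 negative (6.74% and 8.5% of all genes), among them Irf2 (0.97), Tbk1 (0.83), Ptpn11 (0.72), Stat3 (0.88) and Ikbke, a kinase related to Tbk1 (-1.51). At 12 hours 13 of 33 rose and 8 fell, where 34.3% of all genes were higher and 32% lower. Socs3 and Stat3, which belong to interleukin 6 signalling, rose (2.63 ± 0.31 and 1.60 ± 0.23), as did Mavs, the adaptor of RIG-I, and Tbk1 (2.06 ± 0.25 and 1.63 ± 0.26). Ifnar1, a chain of the type I receptor, and Aim2, a sensor of cytosolic DNA, fell (-2.16 ± 0.23 and -2.70 ± 0.26, adjusted p = 2.4e-05 and 1.4e-05).

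Markers of other cell types moved with some of these results. Of 14 Kupffer cell and macrophage markers, 5 fell in LC + MI against LC + sham (Folr2, Timd4, Clec4f, C1qa and C1qc), and their summed level was 180 to 206 CPM in LC + MI livers, against 283 to 369 CPM in LC + sham livers. In HMRKO + MI against LC + MI only Clec4f fell (-0.53 ± 0.16, adjusted p = 0.029, edgeR), and the sums overlapped, at 134 to 235 CPM in HMRKO + MI livers and 180 to 206 CPM in LC + MI livers. Against HMRKO + sham 4 fell and 2 rose, at 134 to 235 CPM in HMRKO + MI livers and 176 to 258 CPM in HMRKO + sham livers. Of 12 lymphocyte markers 6 could be tested, with 3 lower in HMRKO + MI against HMRKO + sham and 2 against LC + MI. Their sums were 1.13 to 1.85 CPM in HMRKO + MI livers and 2.09 to 2.91 CPM in LC + MI livers, against 3.57 to 6.28 CPM in HMRKO + sham livers and 3.96 to 10.05 CPM in LC + sham livers. Siglech, the defining marker of plasmacytoid dendritic cells, which are strong makers of interferon, was under the filter and not tested. It was at 0.101 to 0.168 CPM in HMRKO + MI livers and 0.150 to 0.241 CPM in LC + MI livers. The level was 0.289 to 0.545 CPM in HMRKO + sham livers and 0.144 to 0.407 CPM in LC + sham livers. Of its list of 6 only Ly6d was tested, and unlike Siglech it was higher after MI, with a rise in both genotypes. Of 8 hepatocyte markers 3 rose in HMRKO + MI against LC + MI (Tat, Ass1 and Cps1), 1 rose against HMRKO + sham (Tat), and 2 fell in LC + MI against LC + sham (Ass1 and Cps1). Alb, the defining hepatocyte marker, took 2.28 to 4.68% of counts over the 12 livers. Of 10 markers of sinusoidal endothelium 2 rose in HMRKO + MI against HMRKO + sham, 1 against LC + MI and none in LC + MI against LC + sham. Stab2, the defining endothelial marker, was at 26.3 to 60.2 CPM over the 12 livers. Of 8 neutrophil markers 7 were tested, and 6 rose in HMRKO + MI against HMRKO + sham, 4 against LC + MI and 1 in LC + MI against LC + sham. Their sums were 4974 to 8998 CPM in HMRKO + MI livers and 4461 to 5172 CPM in LC + MI livers, against 772 to 1177 CPM in HMRKO + sham livers and 448 to 2094 CPM in LC + sham livers. Those sums are mostly Lcn2, which hepatocytes also make, and the defining marker Ly6g was at 0 to 0.0507 CPM. Of 5 dendritic cell markers 3 were tested, with 2 lower in HMRKO + MI against HMRKO + sham, 1 against LC + MI and none in LC + MI against LC + sham. The dendritic sums were 5.63 to 9.40 CPM in HMRKO + MI livers and 7.64 to 10.4 CPM in LC + MI livers, against 7.16 to 8.14 CPM in HMRKO + sham livers and 6.996 to 11.3 CPM in LC + sham livers. No marker of any list passed between HMRKO + sham and LC + sham. The Kupffer cell and macrophage markers had 10 of 14 at an unadjusted p under 0.05 there and a median log2 fold change of -0.63 (edgeR), and the other lists had 0. The Kupffer cell sums did not overlap, at 176 to 258 CPM in HMRKO + sham livers and 283 to 369 CPM in LC + sham livers. At 12 hours 7 of 8 hepatocyte markers rose, with sums of 84953 to 117567 CPM in C57 + MI livers, against 33286 to 35939 CPM in C57 + sham livers. Of 5 dendritic cell markers 3 were tested, and Xcr1 and Flt3 fell (-4.69 and -4.34). Clec9a did not pass, at 7.79, 4.49 and 4.36 CPM in C57 + MI livers, against 4.71, 4.75 and 6.95 CPM in C57 + sham livers. The dendritic sums were 6.26 to 11.1 CPM in C57 + MI livers, against 36.1 to 54.2 CPM in C57 + sham livers. Of the Kupffer cell markers only Clec4f fell (-2.25), with sums of 107 to 327 CPM in C57 + MI livers, against 198 to 407 CPM in C57 + sham livers. The summed level of the lymphocyte markers was 1.82 to 3.31 CPM in C57 + MI livers, against 6.33 to 10.8 CPM in C57 + sham livers. Neutrophil markers gave 5 higher and 2 lower of 8, endothelial markers 1 higher and 2 lower of 10, and plasmacytoid dendritic cell markers 1 higher (Ly6d) and 2 lower (Klk1 and Siglech) of 3. The part of these cells and of the share of hepatocyte RNA in the results on interferon-stimulated genes was not tested.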

How the data were processed

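RNA was sequenced from 18 mouse livers as TruSeq libraries on an Illumina instrument. The 1 day table, as the authors deposited it, holds unnormalized counts of reads for each gene. For the 12 hour livers the authors deposited estimated counts, TPM and FPKM per gene, of which FPKM was not used. In the submitters' processing notes the tools are HISAT2 2.1.0, Bowtie2 2.2.3, DESeq2 and TopHat2, and the build is mm9. Which program counted reads, with which annotation and whether by strand, is not given in the sources used here. Therefore overlapping genes cannot be told apart.

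Genes were matched by exact symbol. Estimated counts (28.2% were not whole) were rounded. Genes were kept by filterByExpr of edgeR 4.0.16 (minimum count 10, total 15), scaled by TMM and tested with its quasi-likelihood test (R 4.3.3) over all groups of a time point, with Benjamini-Hochberg adjusted p under 0.05 over all genes as the call, at any fold change. The spread between livers was a biological coefficient of variation of 0.209 at 1 day and 0.24 at 12 hours. Limits of 0 counts cover counting error only. The ± SE values come from the edgeR fit and include the spread between livers. Scripts were tested on simulated data. The number of sample columns that could not be matched to a label was 0.

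The members, lists and tests were chosen with earlier results of these data known. Values per liver are given for the transcription factors, for up to 10 members with the smallest p among those called in each comparison, and for members called in the interaction. Of the pathway genes, up to 6 called genes with the smallest p per comparison were named, and the ligands are named by their role. Some genes of the lists are not reported here by name. Bst2 at 12 hours was named after its values were seen. Alternatives were RLE size factors, a mean count of at least 10 as a stricter filter, any gene with 1 count or more, DESeq2 1.42.0, a replicate block, a model fitted to the compared groups alone, a fold threshold of 1 log2 unit, limma 3.58.1 on log2(TPM + 1) and log2(TPM + 0.1) at 12 hours, and each library left out in turn. Thinning of the 12 hour libraries to the smallest was added after seeing the data.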

Additional observations from a re-analysis of the deposited data

Results flagged for a closer look

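For 8 members the log2 fold change of MI over sham in HMRKO livers, less that in LC livers, passed the interaction test of edgeR (adjusted p under 0.05 over all genes). The differences were -2.21 for Gbp6, -1.63 for Rtp4, -1.38 for Oasl1, -1.23 for Irf1, -1.06 for Isg15, -1.05 for Igtp, -0.84 for Samd9l and -0.74 for Ifi35.

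In CPM, Bst2 went opposite ways in the C57 livers at 12 hours and the LC livers at 1 day. Every C57 + MI liver was above every C57 + sham liver at 12 hours (log2 fold change 0.85), and every LC + MI liver was below every LC + sham liver at 1 day (-0.97). The 12 hour groups overlapped in TPM, where the call was lost (0.19 on the log2(TPM + 1) scale, adjusted p = 0.55, limma), and it was also lost without C57 + sham replicate 2 (adjusted p = 0.057, edgeR). The difference between them was not tested, since the 2 tables were made separately and the mice differ in alleles as well as time.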

How the results depend on the processing

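Over the 96 calls of single members, 79 held under every refit that gave a value for them other than leaving out a library, 62 held also without each library, and 0 reversed. The fold threshold is a stricter call on one fit and is not among these refits. With a fold threshold of 1 log2 unit, 3 members were lower in LC + MI against LC + sham, 18 were lower and 0 higher in HMRKO + MI against HMRKO + sham, and 0 were higher in HMRKO + MI against LC + MI. In a fit of only the groups compared, 3 were lower in LC + MI against LC + sham and 1 was higher in HMRKO + MI against LC + MI. With no filter beyond 1 count, 1 was higher in HMRKO + MI against LC + MI and 13 were lower in the interaction. The replicate block gave 19 lower and 1 higher between HMRKO + MI and LC + MI, 8 lower in LC + MI against LC + sham, 29 lower in HMRKO + MI against HMRKO + sham, 6 lower in the interaction and 23 lower at 12 hours. The calls of Parp9 and Batf2 in HMRKO + MI against LC + MI were among those lost under the block. Same-numbered livers correlated at -0.171 to 0.182 in their deviations at 1 day (3 of 18 pairs over 0.1) and at -0.089 to 0.0236 at 12 hours (0 of 3), so they share only a number. Leaving out 1 library gave 1 to 11 members lower in LC + MI against LC + sham, 13 to 22 lower and 0 to 2 higher in HMRKO + MI against LC + MI, 25 to 32 lower in HMRKO + MI against HMRKO + sham, 3 to 14 lower in the interaction, and 18 to 22 lower and 2 to 4 higher at 12 hours. Over all genes, 55 to 554 were then lower in LC + MI against LC + sham. The ranges were 1369 to 2429 in HMRKO + MI against LC + MI and 2568 to 3289 in HMRKO + MI against HMRKO + sham. In the interaction the range was 583 to 1283, and at 12 hours 3372 to 3726. The cause of these changes was not tested. Depth limits the 12 hour comparison, where 3 counts in a C57 + sham library stand for 1.04 to 1.77 CPM. The difference in Alb share between those groups, given above, is a further limit.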
